A study of Homo sapiens with 4 samples.

Results

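Cadherins are the transmembrane proteins that hold neighbouring epithelial cells together at adherens junctions, and catenins tie their tails to the actin skeleton. A set of 10 junction genes, the tight junction scaffold TJP1 among them, was followed through site lists made from RNA that came down with PARP1 in HK-2 cells. The members were the 6 cadherins CDH1, CDH2, CDH3, CDH4, CDH13 and CDH16, the 3 catenins CTNNA1, CTNNB1 and CTNND1, and TJP1, which makes 10 of 19951 protein-coding genes of the GENCODE 29 annotation. A site was theirs when its gene identifier, with the version removed, had one of these symbols. They held 175 of 166248 listed sites in the first immunoprecipitation (IP 1) and 226 of 229782 in the second (IP 2).

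At an adherens junction the outer domains of classical cadherins bind the same cadherin on the next cell in the presence of calcium. Inside the cell, p120-catenin (CTNND1) holds the cadherin at the membrane and beta-catenin (CTNNB1) links it to alpha-catenin (CTNNA1), which binds actin. Free beta-catenin also acts in the nucleus as a partner of TCF transcription factors. Proximal tubule cells differ from most epithelia in that N-cadherin (CDH2) is a main cadherin of their junctions.

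The study asked which RNAs PARP1, a nuclear enzyme that adds ADP-ribose chains to proteins, binds in renal tubular cells, with an eye on matrix genes. HK-2 is an immortalised line of human proximal tubule cells. By the labels there were 2 PARP1 IPs and 2 inputs, from this 1 line and with no treatment named; the bound RNA was taken with a Flag antibody, and the labels do not describe the construct it recognised. The inputs were not analysed here and the labels name no control IP, so every value below describes what was listed in PARP1 IPs, not an enrichment over input. No label says whether the cultures behind IP 1 and IP 2 were separate, and their spread may be technical. With 1 group and no input values there was no test of a condition, and no p-value is given.

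Each listed site is 1 base at which at least 2 sequenced tags departed from the reference by a substitution, a deletion or an insertion. The lists give the tags over the base, the mutated tags among them, a false discovery rate and the gene. A site was called sense when it lay on the strand of the gene it was given to, and antisense otherwise. Because long genes collect more sites, levels are given as sense sites per 10 kb of gene span, and each gene was ranked by this density within its span bin, one of 10 equal bins of all protein-coding genes by length. Where values of the IPs stand in a pair, that of IP 1 is followed by that of IP 2. Intervals are exact (Clopper-Pearson) at 95% and cover counting error only, since amplified tags are not independent molecules. A site needs a mismatch, so a gene with no site is not shown to be absent from the IP, and fewer transcripts cannot be told apart from fewer mismatches. As a check of the cell type, 9 marker genes of tubule and renal epithelium were counted. Sense sites in both IPs were found for 6 of these 9, against 50.7% of all protein-coding genes. PAX8 had 23 and 21 and HAVCR1 had 12 and 13, but AQP1 and ANPEP had none.

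Of the 10 members, 8 had sense sites in both IPs, against 50.7% of all protein-coding genes. CDH16 had them in IP 2 alone and TJP1 in neither. That background rises with length, with 26.3% of genes in the span bin of CDH16, 75.2% in that of CDH3, CTNNB1 and CTNND1, 79.6% in that of CDH1 and 87.7% in the longest bin, which holds the other 5 members. The 2 IPs listed an identical sense base in 3 of 10 members, CDH2, CTNNA1 and CTNNB1, against 14.1% of all protein-coding genes and 37.2% of those in the longest bin. The members' percentiles, averaged over the IPs, had a median of 50.5 and ran between 4.46 and 77.5. By construction the percentiles of all genes in a span bin have a mean of 50. The median of the members thus lay near the middle of genes of their length, with a wide spread between single members.

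**Figure D1:**
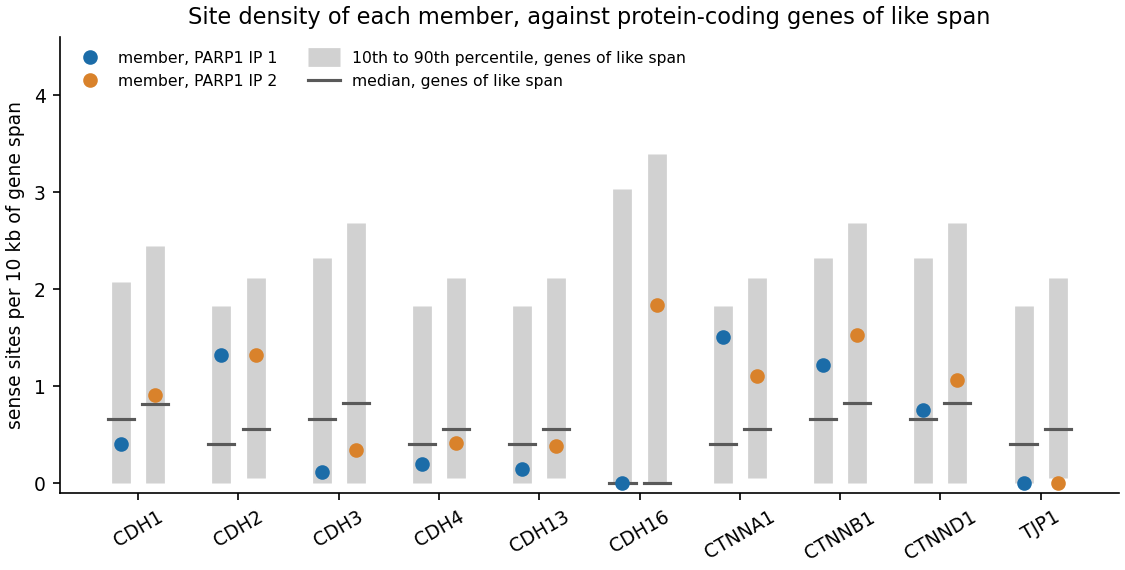
Sense sites per 10 kb of gene span (vertical axis) for each of the 10 members (horizontal axis), with blue points for PARP1 IP 1 and orange points for PARP1 IP 2; grey bars run between the 10th and the 90th percentile of genes in the member's span bin and the dark line is their median. CDH2 and the 3 catenins lie above the median of their bin in both IPs, CDH3, CDH4, CDH13 and TJP1 below it in both, and all points but that of TJP1 in IP 2 lie within the grey bars.

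Among the classical cadherins, CDH2 (N-cadherin, chr18:27950966-28177446, minus strand, GRCh38) stood out. It had 30 sense sites in each IP, or 1.32 per 10 kb, at the 80.7th and the 74.4th percentile of genes of like span. Against it, CDH1 (E-cadherin, chr16:68737225-68835548), the main cadherin of most other epithelia, had 4 and 9 sense sites, or 0.407 and 0.915 per 10 kb, at the 39.2nd and the 53.5th percentile. Thus in both IPs the N-cadherin gene carried more sense sites per length than the E-cadherin gene, although 4 of the 9 sites of CDH1 in IP 2 were 1 run of deleted bases. With sites of both strands counted the order held in IP 1 but turned in IP 2, where CDH1 was at 1.63 per 10 kb and CDH2 at 1.46. With sites within 50 bases of each other counted once, CDH1 had 4 and 6 sense sites and CDH2 had 24 and 27.

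The CDH2 sites were unevenly spread. Its second intron, 133763 bases or 59.1% of the gene, held 15 of them in IP 1 and 24 in IP 2. The first intron held 8 in IP 1 and 3 in IP 2, and intron 14 held 6 in IP 1 and 0 in IP 2. Of the IP 1 sites, those at 27981138, 27981139 and 27981140 in intron 14 were a run of neighbouring deleted bases. Those at 28147999 and 28148000 in intron 1 were another run, and intron 2 also held such runs in both IPs. In both IPs 21 of the 30 lay before the midpoint of the gene, toward its promoter. One base of intron 2, at position 28102116 and 75.3 kb from the gene start, was listed in both IPs as a substitution, with 2 of 2 tags mutated in IP 1 and 5 of 5 in IP 2. The sole exon site of CDH2 was a deletion in the 5′ untranslated region in IP 2, with 2 of 6 tags mutated, and it is shown because 6 is the largest tag count of this gene; the capital is the deleted base, as in the other deletions shown, and all sequences are those of GENCODE 29 transcripts.

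CDH2 5′ untranslated region, IP 2, position 28177151: ggggaggggaagggaAgggggtggaaactg

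In CDH1 every intronic sense site, 4 in IP 1 and 8 in IP 2, lay in intron 2, a stretch of 63258 bases that makes up 64.3% of the gene. Its only exon site was a substitution in the coding sequence in IP 2 at 2 of 2 tags. No base of CDH1 was shared by the IPs, and none of its sense sites in one IP had a sense site of the other within 500 bases. CDH1 also had 1 antisense site in IP 1 and 7 in IP 2, so that 56.2% of its 16 sites in IP 2 were in sense (interval 29.9 to 80.2%), against 84.8% over all protein-coding genes.

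CDH3 (P-cadherin, chr16:68636189-68722616), the gene next to CDH1 on chromosome 16, had 1 and 3 sense sites, or 0.116 and 0.347 per 10 kb. Its percentiles of 21.8 and 34.0 were the lowest among the members with sites in both IPs. In each IP 1 more site on its strand within the annotated gene was given to no gene. With all sites assigned by annotated span, CDH3 was at 0.231 and 0.463 per 10 kb. One of the few sites given to CDH3 was the exon substitution of the members with the most tags: a base of the 3′ untranslated region mutated in 6 of 6 tags in IP 2. It was not listed in IP 1. The capital marks the substituted base.

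CDH3 3′ untranslated region, IP 2, position 68698554: tgacgttagagtggtGgcttccttagcctt

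CDH4 (R-cadherin, chr20:61252426-61940617), a classical cadherin best known from retina and brain, had 14 and 29 sense sites. Over its 688192 bases these gave 0.203 and 0.421 per 10 kb, at the 39.7th and the 44.8th percentile. All were intronic, 12 in IP 1 and 25 in IP 2 within intron 2, which takes up 71.0% of the gene. None was shared, and none had a sense site of the other IP within 500 bases.

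The remaining 2 cadherins depart from the classical plan. CDH13 (T-cadherin, chr16:82626803-83800640) has no cytoplasmic tail and sits in the membrane by a lipid anchor. At 1173838 bases it is the longest member, and it had 18 and 45 sense sites, all intronic, or 0.153 and 0.383 per 10 kb. These densities lay at the 35.1st and the 43.1st percentile. Of its sense sites in both IPs together, 71.4% were from IP 2 (interval 58.7 to 82.1%), above the 54.7% that IP 2 contributed to the sense sites of all protein-coding genes. The sites were spread over the whole gene, with 9 on each side of its midpoint in IP 1 and with 23 before and 22 after it in IP 2, and over 7 introns in IP 1 and 8 in IP 2. No base was shared.

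CDH16 (Ksp-cadherin, chr16:66908122-66918984, minus strand), a cadherin of kidney tubule epithelium, is a gene of only 10863 bases. IP 1 listed 0 sense sites for it and IP 2 listed 2, which makes 0 and 1.84 per 10 kb and percentiles of 31.5 and 77.7. In its span bin the median gene has 0 sites in each IP, so 2 sites set a high rank. One of the 2 was an insertion in the coding sequence with 2 of 3 tags mutated and the other was intronic. A level cannot be read from so few sites.

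CDH2, CDH4, CDH13 and CTNNA1 had at least 10 sites in each IP, and of these 4 CDH13 had the lowest share in sense. In CDH13, 18 of 50 sites in IP 1 and 45 of 74 in IP 2 were in sense, so that antisense sites numbered 32 and 29. The share in sense was thus 36.0% in IP 1 (interval 22.9 to 50.8%) and 60.8% in IP 2 (48.8 to 72.0%), against 88.9% and 84.8% over all protein-coding genes. Among genes of its span bin with at least 10 sites, 2.05% had a lower share in IP 1 and 15.8% in IP 2, and the medians of those genes were 92.9% and 87.0%. CDH1 and CTNNB1 had at least 10 sites in IP 2 alone, with 56.2% and 90.9% of them in sense. Of such genes in their own span bins, 4.46% had a lower share than CDH1 and 45.9% a lower share than CTNNB1. In IP 2 a low share in sense was thus not particular to CDH13. All 61 antisense sites of CDH13 had exactly 2 tags, both mutated, as did most of its sense sites, of which 16 of 18 in IP 1 and 44 of 45 in IP 2 had 2 tags. None of the antisense sites recurred on that strand in the other IP. At 1 base, however, an antisense site of IP 1 met a sense site of IP 2, and 1 other base was listed on both strands within IP 2.

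Strand went with density among long genes. The longest span bin was cut into 4 equal groups of genes by sites of both strands per 10 kb. The second lowest group, which holds CDH4 and CDH13, had 69.9% of its sites in sense in IP 1 and 67.0% in IP 2, and the densest group had 93.2% and 89.8%. CDH4 was at 73.7% (48.8 to 90.9%) and 72.5% (56.1 to 85.4%), near the share of its group, and CDH2 at 90.9% (75.7 to 98.1%) in both IPs. The share of CDH13 in IP 1 was below that of its group, with the upper bound of its interval at 50.8%. What gave rise to the antisense sites was not tested.

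**Figure D2:**
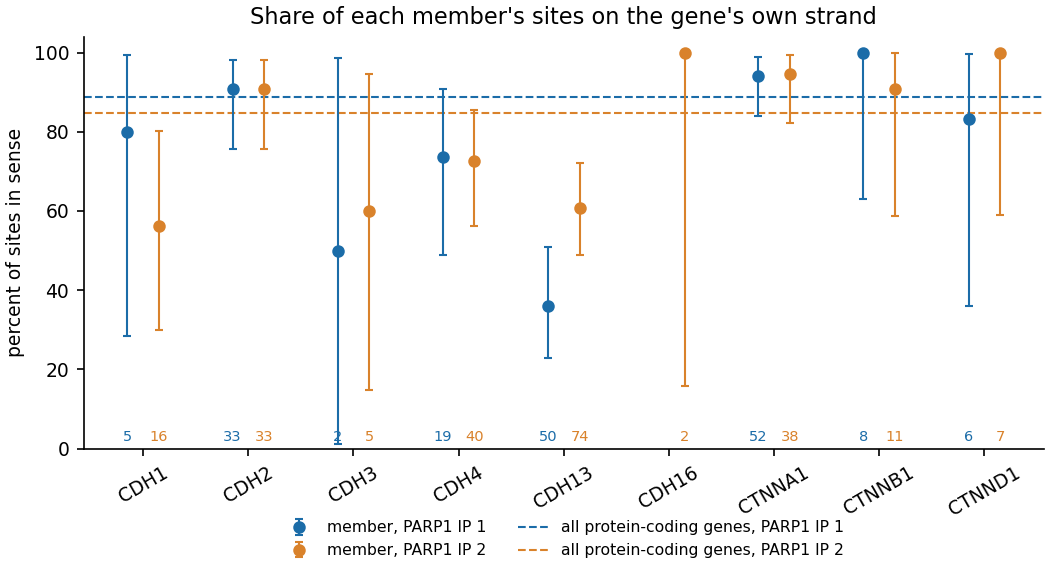
Percent of each member's sites that lay on the gene's own strand (vertical axis), with exact 95% intervals, for PARP1 IP 1 (blue) and PARP1 IP 2 (orange); small numbers give the sites behind each point and dashed lines the share over all protein-coding genes. CDH13 lies below both lines in both IPs at 36.0 and 60.8%, while CDH2 and CTNNA1 lie above 90% in both.

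By class, the 6 cadherins had 67 of 109 sites in sense in IP 1, or 61.5% (51.7 to 70.6%), and the 3 catenins 62 of 66, or 93.9% (85.2 to 98.3%). In IP 2 the cadherins had 118 of 170, or 69.4% (61.9 to 76.2%), and the catenins 53 of 56, or 94.6% (85.1 to 98.9%). The intervals of the classes do not overlap in either IP, but CDH13 alone gave 32 of the 42 antisense cadherin sites of IP 1 and 29 of the 52 of IP 2. Without CDH13 the cadherins were at 83.1% (71.0 to 91.6%) in IP 1, where the intervals then overlap, and at 76.0% (66.3 to 84.2%) in IP 2, where they do not. Per length the cadherins had 0.293 and 0.517 sense sites per 10 kb and the catenins 1.36 and 1.16. Without CDH13 the cadherins were at 0.441 and 0.657. CDH4, at 0.203 and 0.421 per 10 kb, made up 688 of the 1110 kb then left, so this class value leans on 1 long gene. The sites of a class come from a few genes and 2 libraries, so they are not replicates of a class.

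Among the catenins, CTNNA1 (alpha-E-catenin, chr5:138610967-138935034), the actin-binding member, had the most sense sites of the 10 genes when both IPs were added. It carried 49 and 36 sense sites, or 1.51 and 1.11 per 10 kb, at the 84.7th and the 68.3rd percentile. It was the one member with fewer sense sites in IP 2: that IP gave 42.4% of its sense sites (interval 31.7 to 53.6%), below the 54.7% over all protein-coding genes. Only 3 of 52 sites in IP 1 and 2 of 38 in IP 2 were antisense.

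The sense sites that the lists gave to CTNNA1 lay within its principal coding transcript. GENCODE extends the gene 142456 bases upstream of that transcript, and no sense site given to CTNNA1 lay in that stretch in either IP. In IP 2 the annotated gene held 37 sites on its strand, of which 36 were given to CTNNA1 and 1 to no gene. Whether the lists assign sites of the upstream stretch to CTNNA1 was not tested. The first sense site given to CTNNA1 lay 143 kb from the gene start in IP 1 and 145 kb in IP 2. Counted over the transcript alone, the density was 2.70 and 1.98 per 10 kb. Intron 1 of the transcript, with 28412 bases, held 12 and 11 of them, and the longest, intron 7 with 58493 bases, held 16 and 9.

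Of the 7 shared bases of the members 5 were in CTNNA1, spread over 15409 bases in introns 4, 5 and 6. They form 2 close pairs and 1 single base. The pair in intron 4, at 138811674 and 138811681, and the pair in intron 5, at 138820236 and 138820270, each had 2 of 2 tags mutated in IP 1 and 3 of 3 in IP 2 at both bases. The single base in intron 6, at 138827083, had 2 of 2 in both IPs. Bases of a pair lie 7 and 34 bases apart and have equal tag counts, so each pair may be read by the same tags.

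CTNNA1 had 2 exon sites, both deletions with more tags than the median of 2, and both are shown. One lay in the 3′ untranslated region in IP 1, with 2 of 6 tags mutated, and the other in the coding sequence in IP 2, with 2 of 11.

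CTNNA1 3′ untranslated region, IP 1, position 138934130: ccctcggggctcctgAatatcagtcactgt
CTNNA1 coding sequence, IP 2, position 138930569: ctggatgctgaagtgTccaaatgggacgac

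CTNNB1 (beta-catenin, chr3:41194741-41260096), both a junction protein and the effector of Wnt signalling, had the highest density of the 10 genes when the IPs were averaged, 1.38 per 10 kb. It had 8 and 10 sense sites, or 1.22 and 1.53 per 10 kb, at the 67.3rd and the 70.5th percentile. The values of CTNNB1, CDH2 and CTNNA1 lie so near each other that their order changes between the IPs. Intron 1, with 24350 bases, held 3 of its sites in IP 1 and 8 in IP 2. One base of that intron, at position 41213155, was shared, with 2 of 2 tags mutated in both IPs. CTNNB1 had exon sites in both IPs, 3 in IP 1 and 1 in IP 2, and the one in IP 2 was a coding-sequence deletion at 2 of 9 tags in a run of 3 equal bases.

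CTNNB1 coding sequence, IP 2, position 41225084: cactaatgtccagcgTttggctgaaccatc

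CTNND1 (p120-catenin, chr11:57753243-57819546), which keeps cadherins from being taken up by the cell, had 5 and 7 sense sites, or 0.754 and 1.06 per 10 kb. Its percentiles were 53.0 and 57.2. These values depend on how the lists assign sites. All of its sense sites lay beyond the midpoint of the gene, the first at 40.7 kb from the start in IP 1 and 41.8 kb in IP 2. The first part of CTNND1 is also covered by TMX2-CTNND1, a readthrough gene annotated from 57712605 to 57791586, and the lists give the sites there to the readthrough gene.

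Those sites numbered 6 in IP 1 and 14 in IP 2, all intronic and none shared. Counted with CTNND1 they raised its total to 11 in IP 1 and 21 in IP 2, or 1.66 and 3.17 per 10 kb. The percentiles then became 79.2 and 93.7, which would make CTNND1 the member of highest density in both IPs. Reads of the 2 genes cannot be told apart in the overlap.

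CTNND1 had the deepest exon sites of the members. A coding-sequence deletion in IP 1 had 2 of 10 tags mutated, and 3 deletions of the 3′ untranslated region in IP 2 had 2 of 9, 2 of 12 and 2 of 12. The last 2 are neighbouring bases at 57817175 and 57817176, and the second of them is shown.

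CTNND1 coding sequence, IP 1, position 57802084: tctcaagaatatctcTtttggacgtgacca
CTNND1 3′ untranslated region, IP 2, position 57817081: ctgctgagttggcctGgccatttccaagag
CTNND1 3′ untranslated region, IP 2, position 57817176: gggaagaagaagaccTctaggaggagctag

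TJP1 (ZO-1, chr15:29699367-29968865, minus strand), the scaffold under tight junctions that also binds alpha-catenin, had no site on either strand in either IP. At 269499 bases it is longer than CDH2, and in its span bin 23 of 1995 genes had no site on either strand in either IP. The gap was wider than the gene. No site of either IP lay between positions 29318185 and 30490540 of chromosome 15, a stretch of 1172354 bases that holds TJP1 and 4 other protein-coding genes, CHRFAM7A, GOLGA8J, GOLGA8R and GOLGA8T. Stretches of at least 1000 kb without a site held 201 protein-coding genes (1.01%), among them 4 of the 1995 in the bin of TJP1. How reads that map to several places were treated is not given in the sources used here, and no level of TJP1 RNA can be read from the gap.

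**Figure D3:**
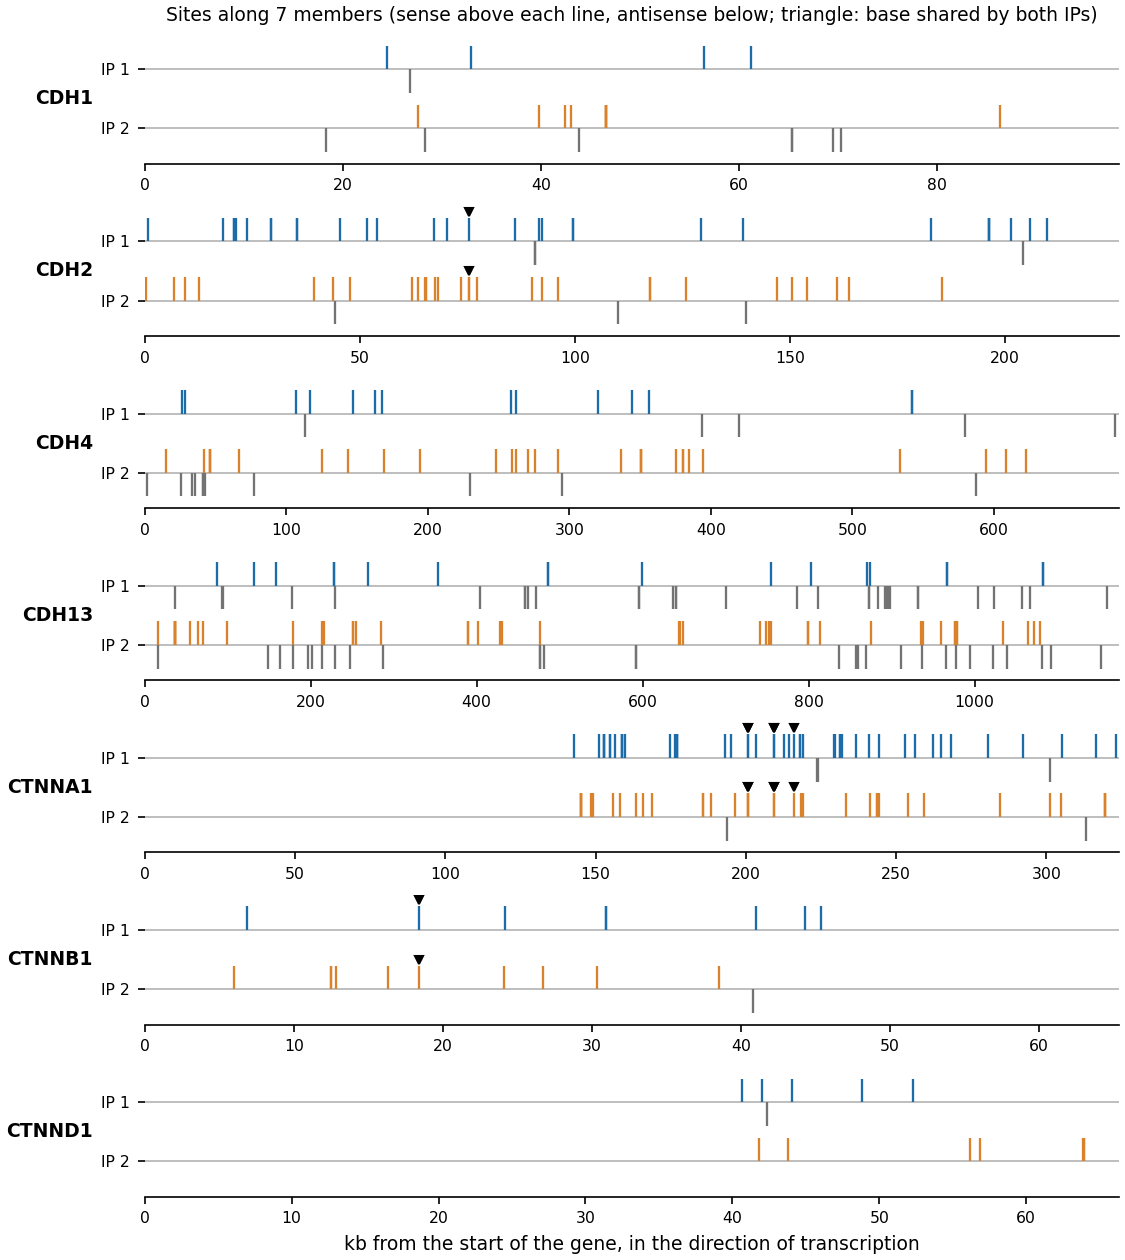
Sites of PARP1 IP 1 (upper line of each panel) and PARP1 IP 2 (lower line) along 7 members, by kb from the gene start (horizontal axis); coloured ticks above a line are sense sites, grey ticks below it antisense sites, and triangles the 7 bases shared by both IPs. Sites given to CTNNA1 begin 143 and 145 kb into the annotated gene, and the sense sites given to CTNND1 lie beyond its midpoint. The grey ticks are most numerous in CDH13, the longest gene. Per 10 kb, antisense sites of IP 2 were more frequent in CDH1, at 0.712 against 0.247 in CDH13.

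Over all members, 7 sense bases recurred, which is 5.43% of the 129 sense sites of IP 1 (2.21 to 10.9%) and 4.09% of the 171 of IP 2 (1.66 to 8.25%). Over all protein-coding genes the shares were 4.96% and 4.11%. Allowing 10 bases between the sites of the IPs added none, and allowing 50 bases gave 9 sites of IP 1 and 10 of IP 2. All 7 shared bases of the members were intronic substitutions with every tag mutated in both IPs. Of the 5147 shared bases of protein-coding genes 82.5% were substitutions in both, and 89.6% of these had every tag mutated in both. Whether HK-2 cells differ from the reference genome at these bases was not tested.

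Exon and intron sites differed in their mutation types. Of the members' sense sites, 124 of 129 in IP 1 and 161 of 171 in IP 2 were intronic, so 3.88% (1.27 to 8.81%) and 5.85% (2.84 to 10.5%) lay in exons, against 9.36% and 8.77% over all protein-coding genes. Per length, exons of the members held 0.622 and 1.24 sites per 10 kb and introns 0.423 and 0.55, which makes ratios of 1.47 and 2.26. Over all protein-coding genes exons held 0.951 and 1.08 and introns 0.751 and 0.912, with ratios of 1.27 and 1.18. Relative to introns and per length, the members' exons were thus not poorer in sites than those of all genes. The members' exon values rest on 5 and 10 sites. Of the 15 exon sites 12 were deletions or insertions, against 25 of 124 intron sites in IP 1 and 41 of 161 in IP 2. Over all protein-coding genes deletions and insertions made up 48.6% and 50.8% of exon sites and 30.4% and 31.1% of intron sites. Exon sites of any type were split unequally between the classes, with 0 and 4 in the 6 cadherins and 5 and 6 in the 3 catenins.

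Exon sites were also deeper. In IP 1, 2 of 5 exon sites had at least 5 tags, and in IP 2, 7 of 10, against 4.84% and 0.621% of the intron sites. Over all protein-coding genes 29.8% and 30.5% of exon sites and 6.81% and 7.43% of intron sites reached that depth. Substitutions of the members were nearly always in every tag, 220 of 222 or 99.1%, and deletions less so, 41 of 60 or 68.3%. Over all protein-coding genes these shares were 96.9% and 57.2%. Of the 60 deletions 22 lay directly after another deleted base of the same list, so that neighbouring deletions can be 1 event, while no substitution lay directly after another substitution.

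**Figure D4:**
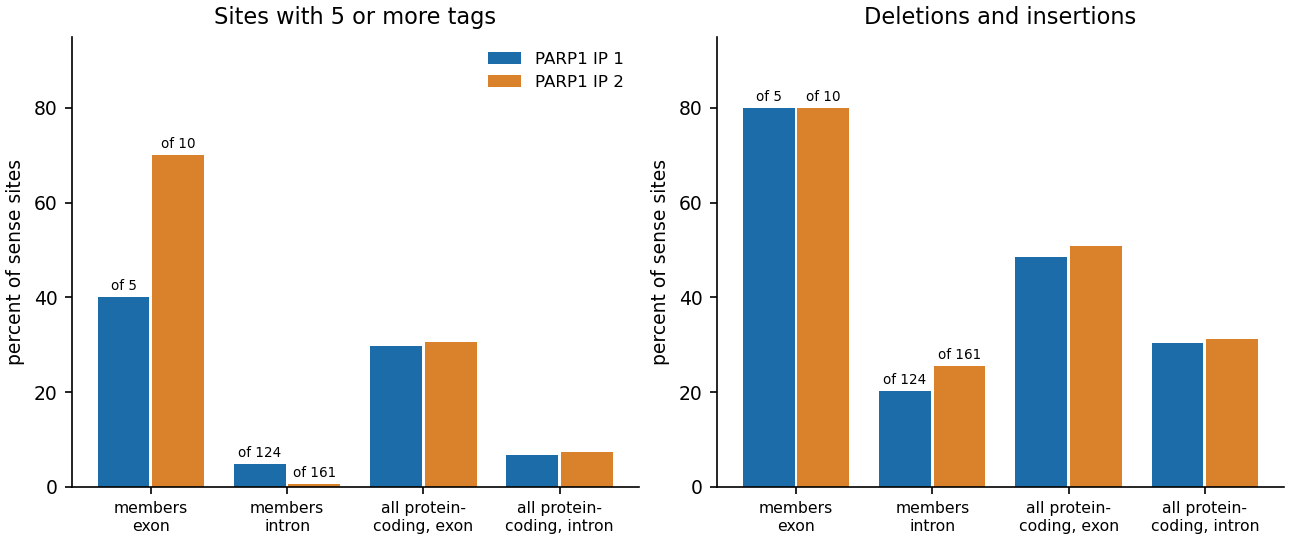
Percent of sense sites with 5 or more tags (left) and percent that were deletions or insertions (right), in exons and introns of the members and of all protein-coding genes, for PARP1 IP 1 (blue bars) and PARP1 IP 2 (orange bars); the number of member sites behind each bar stands above it. In both panels the members' exon bars, at 40.0 and 70.0% and at 80.0%, are taller than their intron bars.

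Genes that work with the members were counted in 6 lists of 79 genes. Over all protein-coding genes, 50.7% had sense sites in both IPs and 14.1% had a shared base. In the longest span bin these shares were 87.7% and 37.2%, and they were lower in bins of shorter genes. The counts of each list are to be read beside these shares. Of 17 other cadherins, 12 had sense sites in both IPs, 2 had a shared base and the median percentile was 26.3, against 50.5 for the members. CDH6 (K-cadherin), a cadherin of the proximal tubule and of its precursors, had the highest density of those with sites in both IPs, with 36 and 52 sense sites, or 2.66 and 3.84 per 10 kb, at the 95.5th and the 98.6th percentile. The next of these, CDH10, had 2 and 9 sites, or 0.127 and 0.57 per 10 kb. CDH24, a short gene named here after its values were seen, had 0 and 5 sites, or 0 and 4.77 per 10 kb, so in IP 2 it lay above CDH6. CDH6 thus exceeded CDH2 in density in both IPs.

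Of 10 other catenins, 8 had sense sites in both IPs and 4 a shared base, with a median percentile of 39.6. PKP4 (p0071), a relative of p120-catenin, had 38 sites in IP 1 and 45 in IP 2, and CTNNAL1 (alpha-catulin) had 11 and 14. PKP3, a plakophilin of desmosomes, had none. Of 11 adherens junction partners, 9 had sites in both IPs and 4 a shared base, with a median of 55.6. NECTIN2, an adhesion receptor of the immunoglobulin family, had 4.18 and 5.34 sites per 10 kb at the 98.6th and the 99.2nd percentile, and VCL (vinculin), which binds stretched alpha-catenin, had 28 and 33 sites. NECTIN4 and PTPRK had none, PTPRK within a stretch of 997 kb without a site of either IP.

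Of 20 tight junction genes, 12 had sites in both IPs and 5 a shared base, with a median percentile of 46.1. CGNL1 (paracingulin) had 58 and 66 sites, at the 99.1st and the 99.3rd percentile, so not every gene of the tight junction plaque lacked sites as TJP1 did. F11R (JAM-A) had 5 and 14. No sense site of either IP was listed for 6 of the 20 genes, namely CLDN2, CLDN3, CLDN7, MARVELD2, OCLN and TJP3. All of these but CLDN2 and CLDN3 are named here after their values were seen. MARVELD2 and OCLN lay in a stretch of 1440 kb without a site of either IP. Of 6 desmosome genes, 3 had sites in both IPs and none a shared base, with a median of 34.2. DSG2 had 3 and 8 sites and DSC2 1 and 3, and DSG1 had none.

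The list of beta-catenin turnover and target genes had the highest median, 64.1, with 13 of 15 in both IPs and 3 with a shared base. TCF7L2, the transcription factor that beta-catenin joins in the nucleus, had 65 sites in IP 1 and 55 in IP 2, at the 98.4th and the 94.2nd percentile, and 11 shared bases, more than all 10 members together. BCL9L, a co-activator of beta-catenin, had 15 and 9 sites, or 4.73 and 2.84 per 10 kb. LRP6, a Wnt co-receptor, had none and lay in a stretch of 565 kb without a site. These lists overlap in function and hold few genes, and the counts are descriptions.

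**Figure D5:**
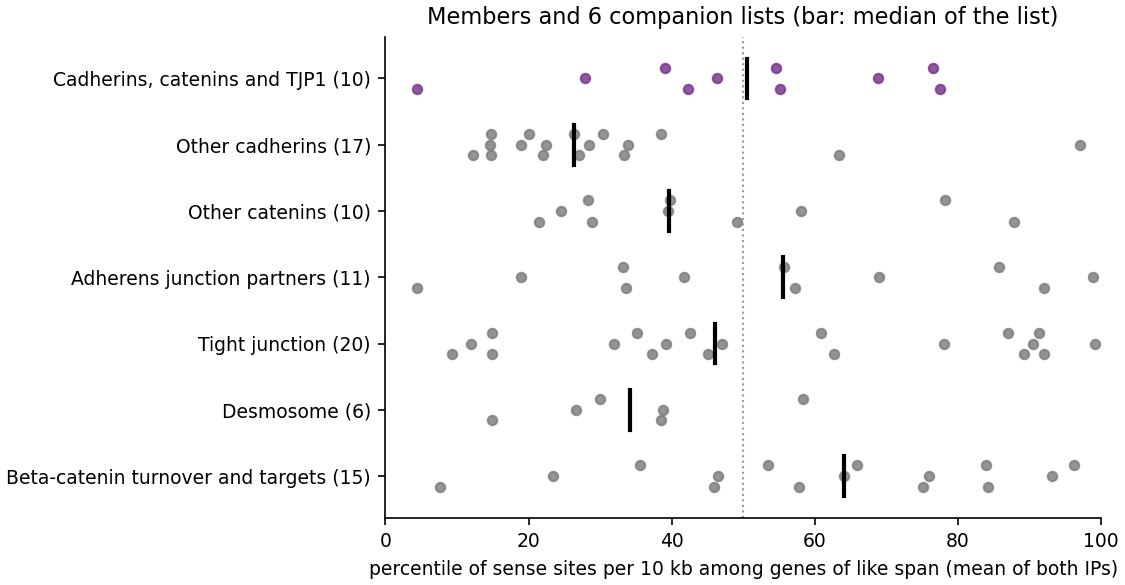
Percentile of site density among genes of like span, averaged over both IPs (horizontal axis), with 1 point a gene, for the members (top, purple) and the 6 companion lists (grey); black bars are medians and the dotted line is the 50th percentile. The members' median is 50.5, and the companion medians run between 26.3 for other cadherins and 64.1 for beta-catenin turnover and targets.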

How the data were processed

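RNA immunoprecipitation sequencing of HK-2 cells gave 1 site list for each of the 2 PARP1 IPs. The submitters' processing notes name TopHat2, bcl2fastq and the build GRCh38, without versions, and no source used here names the site caller. The deposited counts of tags and of mutated tags at each base, and the authors' FDR, are per the file headers and were used as deposited. The values were not normalised and the depth of the libraries is known only through listed sites.

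Sites were matched to genes by the lists' identifiers and to spans, exons and transcripts of GENCODE 29 (GRCh38, counted from 1). The principal transcript was the longest with the best support tags. Python 3.11.15, pandas 2.3.3, NumPy 2.4.6, SciPy 1.17.1 and matplotlib 3.10.9 were used, and matching and ranking were checked on simulated data. The files turned out to hold 1-base sites, not intervals, so sites were counted with no p-value of a difference. A base was shared when both IPs listed it on the same strand.

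The text names all 10 members, all shared bases, the deepest exon sites and, from each companion list, the 2 densest genes found in both IPs and up to 2 found in neither. Other companion genes are marked where they are named. Members and lists were chosen with earlier results of these data known. The inputs were not analysed here. A list of markers of 1 other cell type is not reported here.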

Additional observations from a re-analysis of the deposited data

How the results depend on the processing

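Of 101 recomputed values of the main counts, shares and median, 65 stayed close to the reported value and 36 moved, where a count moved if it changed by over a factor of 1.5 and a share or median if it changed by over 1 SD between the IPs. The largest moves followed from keeping fewer sites. When sites at the commonest FDR of a list or above were dropped, 38 (IP 1) and 62 (IP 2) sense sites of the members were left, with 0 shared bases in 0 members (0.0% recurring), 10.9% in exons and 88.9% of sites in sense. With 3 or more mutated tags they had 9 and 15 sense sites, 4 members in both IPs, 0 shared bases in 0 members, 3.33% in exons and 96.9% in sense. Deletions and insertions alone gave 29 and 49 sites, 5 members in both IPs, 0 shared bases in 0 members, 15.1% in exons and 86.2% in sense, and substitutions alone 1.32% in exons, 6.37% recurring and 71.5% in sense. Joining neighbours within 50 bases left 4 shared bases, 3.27% recurring and 72.8% in sense. Without CTNNA1 there were 80 sense sites in IP 1, 2 shared bases, 1.99% recurring and 68.4% in sense, and without CDH13 the share in sense was 85.8%. Sites of either strand recurred in 3.55%, and within 50 bases of the other IP in 6.41%.

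The median percentile stayed between 39.4 and 59.8 under all alternatives, with 55.3 in IP 2 alone and 39.4 in IP 1 alone. Leaving out 1 IP gave between 8 and 9 members with sense sites, between 3.88% and 5.85% in exons and between 73.7% and 75.7% in sense, and recurrence cannot then be counted. Of 158 densities of single members 94 stayed within a factor of 1.5. All alternatives for the share in sense, and leaving out TJP1, were chosen after seeing the data. Leaving out repeats was not run, since it needs a genome sequence. No paired analysis was possible because the inputs, which share replicate numbers with the IPs, were not analysed here. Shares of single members rest on 2 to 74 sites, and most sites on 2 tags, so the number of sites limits what can be told apart.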

Other observations

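Of 4 epithelial markers (KRT8, KRT18, KRT19 and EPCAM) 2 had sense sites in both IPs, against 50.7% of all protein-coding genes, and their median percentile was 58.1. Of 4 endothelial markers 2 had them in both IPs, with KDR at 0 and a median percentile of 20.1. None of the 4 fibroblast and pericyte markers had sense sites in both, with 4 sites over the list in IP 1 and 0 in IP 2.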
